A study of Mus musculus with 6 samples.

Results

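The solute carrier families that move amino acids and their relatives across membranes were examined in cultured mouse macrophages raised from bone marrow. Members were all genes whose symbol places them in solute carrier families 1, 3, 6, 7, 36, 38 or 43, which gave 61 of the 55023 genes listed. The rule uses names alone and no measured value. RNA was sequenced from 6 libraries, 2 for each of 3 groups treated for 24 h: vehicle, LTα1β2, or LCL161 together with LTα1β2, called the combination here. LTα1β2, a lymphotoxin heterotrimer, engages the lymphotoxin beta receptor. LCL161 is a small compound that antagonises the ubiquitin ligases cIAP1 and cIAP2. A group with LCL161 alone was not analysed here, so its addition was compared on top of LTα1β2. The sources used here do not give strain, genotype, sex, age or doses. Nor is it stated whether the 2 libraries of a group came from separate animals or cultures, so p-values measure only how these libraries vary, and that variation may be technical.

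Cells take up amino acids through carriers that differ in substrate, ion coupling and membrane. The heavy chain CD98hc (Slc3a2) brings a light chain of family 7 to the cell surface, and the light chain sets what is exchanged: Slc7a5 and Slc7a8 exchange large neutral amino acids, Slc7a6 and Slc7a7 exchange cationic for neutral ones, and Slc7a11 imports cystine in exchange for glutamate. In macrophages, cystine feeds glutathione synthesis, and arginine brought in by cationic carriers such as Slc7a2 is the substrate of the inducible nitric oxide synthase Nos2 and of the arginase Arg1.

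Total counts ranged from 14718368 to 19049613 per library. Of the 61 members, 48 passed the filter on low counts and were tested and 13 did not. Levels are given as CPM (reads of a gene scaled to library size) with sizes scaled by the trimmed mean of M values, and levels of different genes are compared only per length, as TPM. A gene was called when its adjusted p from the quasi-likelihood test in edgeR was under 0.05, and log2 differences carry an approximate standard error (SE). The 10 macrophage markers examined summed to between 28070 and 34560 CPM in the 6 libraries, of which Lyz2 alone gave 22310 to 28020. Of these 10 markers, 6 rose and 2 fell with LTα1β2, 3 rose and 5 fell from LTα1β2 to the combination, and 4 rose and 2 fell against vehicle. A list of 13 stromal and osteoblast markers summed to 8662 and 5727 CPM with vehicle, 2251 and 3184 with LTα1β2, and 609 and 678 with the combination. Of the 11 stromal markers tested, none rose in any comparison, and 9, 9 and 10 fell in LTα1β2 against vehicle, the combination against LTα1β2, and the combination against vehicle. Of all genes tested, 23.4%, 25.7% and 39.5% were called in that order, and 10.6%, 15.1% and 21.1% were called lower. In these bulk libraries, fewer cells of a type and less RNA per cell cannot be told apart. Bglap, the osteocalcin gene of mature osteoblasts, had no reads in 5 of the 6 libraries, and Dcn and Lum were at or below 0.695 CPM in every library. Other marker lists were counted as well. Of 4 osteoclast markers tested, 1 rose and 2 fell with LTα1β2 and 3 rose and 1 fell in both comparisons of the combination, with summed levels of 64.7 and 58.3 CPM with vehicle, 43.7 and 46.3 with LTα1β2, and 109 and 116 with the combination. Of 8 neutrophil markers, 3 rose and 1 fell, 0 rose and 4 fell, and 1 rose and 5 fell in the same order of comparisons, with sums of 389 and 551, 759 and 601, and 308 and 317 CPM. Of 6 dendritic cell markers, 1, 1 and 4 rose and 0 fell, with sums of 8.06 to 20.7 CPM. The part of these marker changes in the results on the transporters was not tested.

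Slc7a11, the cystine light chain, and Slc3a2, its heavy chain, were both higher with the combination. A region before a listed start of each is shown because the pair forms the cystine carrier. The regions are the 250 bases upstream of a RefSeq start on GRCm38.p6. Slc1a4, a carrier of alanine, serine and cysteine, is shown beside them because it fell in each of the 3 comparisons. Slc3a2 and Slc1a4 are among the 5 members called in every comparison, while Slc7a11 was added after its values were seen. Of the others called in every comparison, Slc6a19 and Slc7a6 had windows that are not printed, and Slc7a2 had no entry. The windows lie on the reverse strand at chr3:50443614-50443863 for Slc7a11, chr19:8713898-8714147 for Slc3a2 and chr11:20332714-20332963 for Slc1a4. Capitals mark matches to any of the motifs searched, and the sequences run from 5′ to 3′ on the gene's strand.
Slc7a11: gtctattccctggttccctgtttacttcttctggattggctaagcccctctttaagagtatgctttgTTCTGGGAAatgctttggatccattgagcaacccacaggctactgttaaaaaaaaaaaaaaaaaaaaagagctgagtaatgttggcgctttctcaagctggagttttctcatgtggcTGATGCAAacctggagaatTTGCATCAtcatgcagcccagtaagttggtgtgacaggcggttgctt
Slc3a2: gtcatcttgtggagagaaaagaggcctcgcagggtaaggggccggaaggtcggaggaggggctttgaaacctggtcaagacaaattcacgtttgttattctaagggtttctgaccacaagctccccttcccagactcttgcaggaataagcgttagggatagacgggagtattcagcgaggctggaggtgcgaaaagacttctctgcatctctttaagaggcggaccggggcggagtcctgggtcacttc
Slc1a4: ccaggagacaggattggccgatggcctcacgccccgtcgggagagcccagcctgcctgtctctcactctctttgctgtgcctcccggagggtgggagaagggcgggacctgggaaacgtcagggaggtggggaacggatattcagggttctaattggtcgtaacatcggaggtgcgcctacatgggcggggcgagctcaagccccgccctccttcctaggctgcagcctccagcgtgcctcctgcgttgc

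The motifs were the ATF4 composite element TGATGNAA, the antioxidant response element TGACNNNGC, the gamma-activated site TTCNNNGAA, the interferon response element core (GAAA, 2 bases of any kind, GAAA), the NF-kB site (GGG, 2 bases of any kind, TTTCC) and the E-box CACGTG, each on both strands. The Slc7a11 window held TGATGNAA on the forward strand 66 bases and on the reverse strand 47 bases before the start, and TTCNNNGAA 183 bases before it. Neither the Slc3a2 nor the Slc1a4 window held any of the 6 motifs, which says only that these letters are not in these windows. For Slc3a2, the bases that follow shortly after the RefSeq start used were not found in any GENCODE transcript of the gene. Its window also lies inside the GENCODE gene (chr19:8706882-8723369, reverse strand) and not before the annotated gene start. The region before that start was not searched, so the motifs there are not known. Among 32851 RefSeq windows of the same length, TGATGNAA occurred in 3.45%, TGACNNNGC in 10.2%, TTCNNNGAA in 7.02%, the interferon core in 2.98%, the NF-kB site in 1.41% and CACGTG in 6.02%. Of the 64 windows of the 43 members with an entry, 4 held TGATGNAA, 9 TGACNNNGC, 4 TTCNNNGAA, 0 the interferon core, 2 the NF-kB site and 9 CACGTG. TGATGNAA was also found in windows of Slc7a7, which was not called, and of Slc6a21, which was untested. A window of Slc7a6 held TGACNNNGC, and that of Slc6a19 held none of the 6 motifs. A match describes the letters and not a bound site.

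Slc7a11 (chr3:49892526-50443614, reverse strand) was not called with LTα1β2 alone and rose more than 10-fold when LCL161 was added. Its level was 42.1 and 54.9 CPM with vehicle, 47.0 and 50.2 with LTα1β2, and 865 and 834 with the combination. The combination libraries therefore stood far above the other 4, whose values overlapped. LTα1β2 against vehicle gave a log2 difference of 0.00 (SE 0.14, 95% interval -0.31 to 0.32, adjusted p = 0.989 in edgeR). The combination exceeded LTα1β2 by 4.13 (SE 0.15, adjusted p = 9.13e-06), which is 17.5-fold and the 45th largest increase among the 18812 genes tested. Against vehicle the log2 difference was also 4.13 (SE 0.15, adjusted p = 1.34e-06). Per length, Slc7a11 moved from the 16th to the 4th most abundant member, with 9.20 ± 1.11 TPM (SD, n = 2) with vehicle, 8.25 ± 0.382 with LTα1β2 and 129 ± 10.1 with the combination.

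The heavy chain Slc3a2 (chr19:8706882-8723369, reverse strand) rose in steps. It stood at 342 and 394 CPM with vehicle, 521 and 507 with LTα1β2, and 718 and 775 with the combination, with no overlap between groups. The log2 increases were 0.48 (SE 0.10, adjusted p = 0.0148 in edgeR) with LTα1β2 and 0.54 (SE 0.10, adjusted p = 0.00885) from LTα1β2 to the combination. Against vehicle the combination was 1.02 higher (SE 0.11, adjusted p = 0.000192). Per length it was the most abundant member in each group, at 276, 344 and 447 TPM. The Slc7a11 level per length was 0.0312 and 0.0354 of the Slc3a2 level with vehicle, 0.0229 and 0.0251 with LTα1β2, and 0.305 and 0.273 with the combination. Both smaller steps of Slc3a2 depended on single libraries. The call in LTα1β2 against vehicle was lost without vehicle replicate 1 (adjusted p = 0.0936), LTα1β2 replicate 1 (0.0567) or LTα1β2 replicate 2 (0.075), and that in the combination against LTα1β2 without LTα1β2 replicate 1 (0.0627) or 2 (0.0912) or combination replicate 2 (0.0637).

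**Figure D1:**
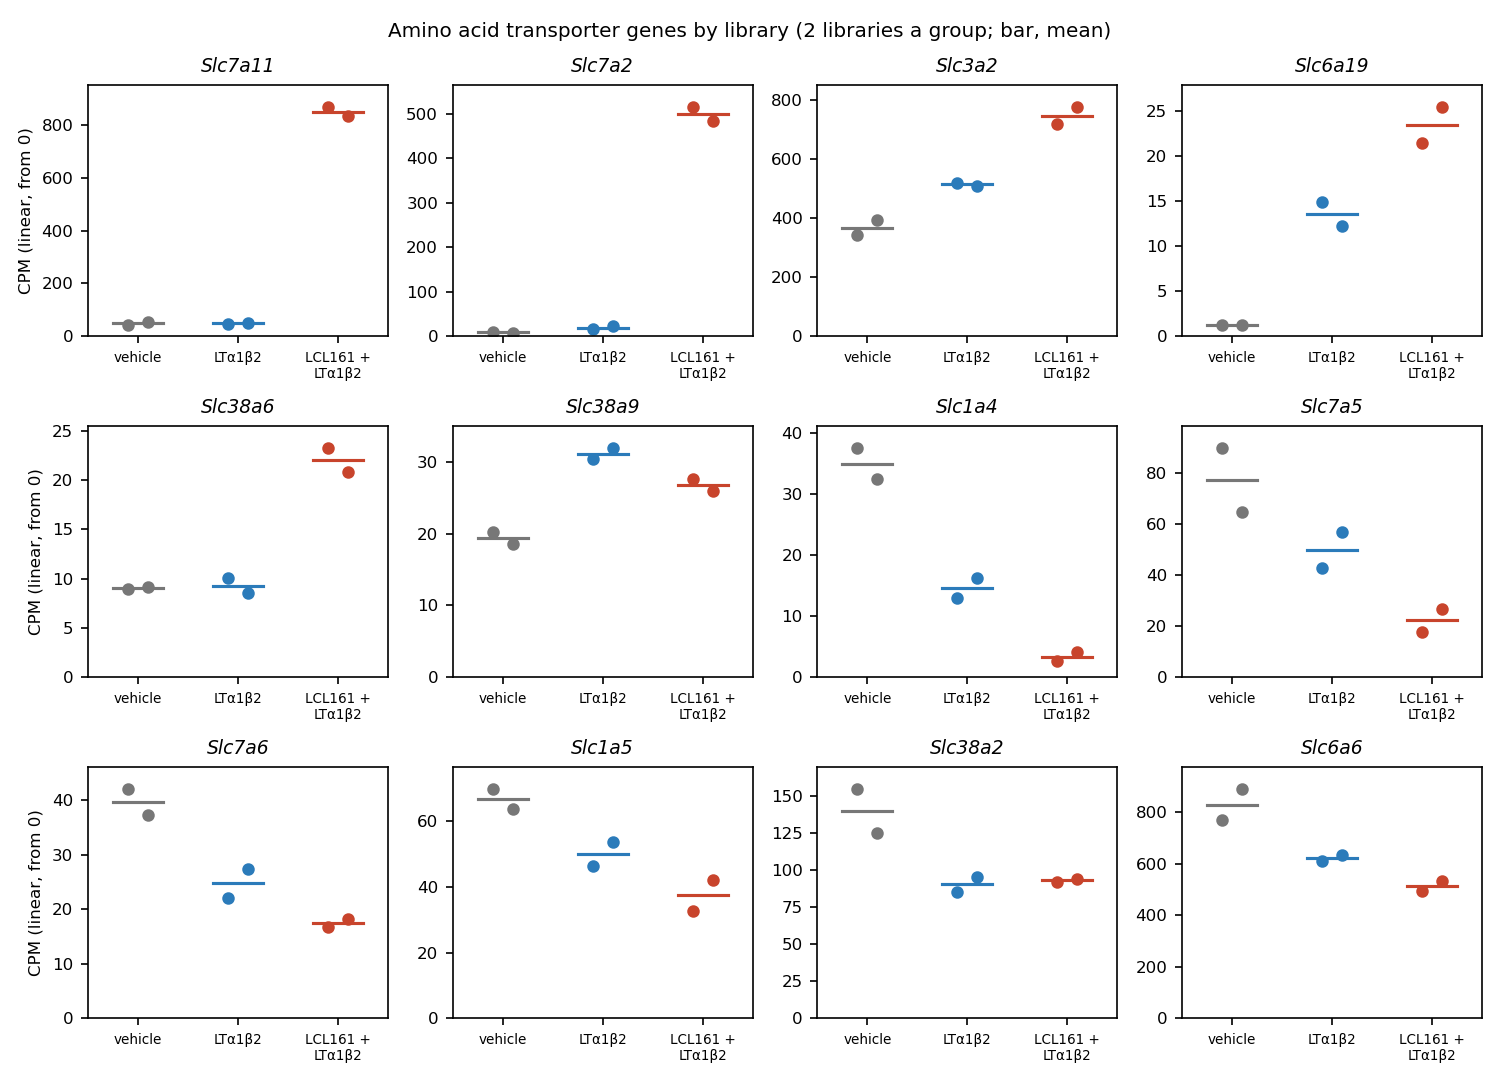
Levels of 12 members in CPM (linear vertical axes) for the 6 libraries, grouped by treatment on the horizontal axis; points are libraries and bars are the mean of the 2 libraries of a group. Slc7a11 and Slc7a2 are near the floor of their panels in 4 libraries and at 484 to 865 CPM with the combination, Slc3a2 climbs in steps, and Slc1a4 descends from 37.5 to 2.63 CPM.

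None of the other 4 light chains tested rose. Slc7a5, the exchanger of leucine and other large neutral amino acids, was at 89.6 and 64.8 CPM with vehicle, 42.9 and 56.9 with LTα1β2, and 17.9 and 26.9 with the combination. These 3 pairs did not overlap and descended in that order. The drop from LTα1β2 to the combination was 2.23-fold (log2 -1.16, SE 0.24, adjusted p = 0.012 in edgeR) and that from vehicle to the combination 3.45-fold (log2 -1.79, SE 0.24, adjusted p = 0.000834). LTα1β2 alone gave -0.63 (SE 0.23, adjusted p = 0.093), which was not called but passed with total count scaling (adjusted p = 0.0289) and with DESeq2 (0.0415). Without LTα1β2 replicate 2, the adjusted p for the combination against LTα1β2 was 0.0761.

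Slc7a6, which exchanges cationic for neutral amino acids, fell at each step. Its levels were 42.0 and 37.3 CPM with vehicle, 22.1 and 27.4 with LTα1β2, and 16.7 and 18.2 with the combination. The log2 changes were -0.68 (SE 0.14, adjusted p = 0.0125 in edgeR) with LTα1β2, -0.50 (SE 0.15, adjusted p = 0.0412) from LTα1β2 to the combination and -1.18 (SE 0.15, adjusted p = 0.000488) against vehicle. The first call was lost without vehicle replicate 1 (adjusted p = 0.109) or LTα1β2 replicate 1 (0.129), and the next without LTα1β2 replicate 2 (0.218) or combination replicate 1 (0.122). Slc7a7, a light chain of the same transport type, was not called, with 28.8 to 37.99 CPM over the 6 libraries. Slc7a8, the most abundant light chain per length, was not called either and lay between 342 and 396 CPM, with log2 differences of 0.13, 0.05 and 0.17 and adjusted p of 0.387, 0.734 and 0.175 in the 3 comparisons. The other heavy chain Slc3a1, rBAT of kidney and gut, was low at 2.12 to 3.80 CPM and not called. The fall of Slc7a5 and Slc7a6 went with that of the stromal marker sum, whose part in the result was not tested.

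Per length, the make-up of the CD98 light chains was another with the combination. Slc7a11 made up 2.62% and 3.65% of the light chain TPM with vehicle, 3.32% and 3.14% with LTα1β2, and 39.0% and 37.0% with the combination. The share of Slc7a8 was 60.6% and 63.1% with vehicle, 70.4% and 69.0% with LTα1β2, and 48.3% and 48.7% with the combination. Slc7a5 took 20.95% and 16.1% with vehicle and 3.03% and 4.48% with the combination. These shares are descriptions that depend on the exon lengths used, and they were not tested. The TPM of all 61 members together was 1408 and 1347 with vehicle, 1212 and 1270 with LTα1β2, and 1412 and 1368 with the combination.

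**Figure D2:**
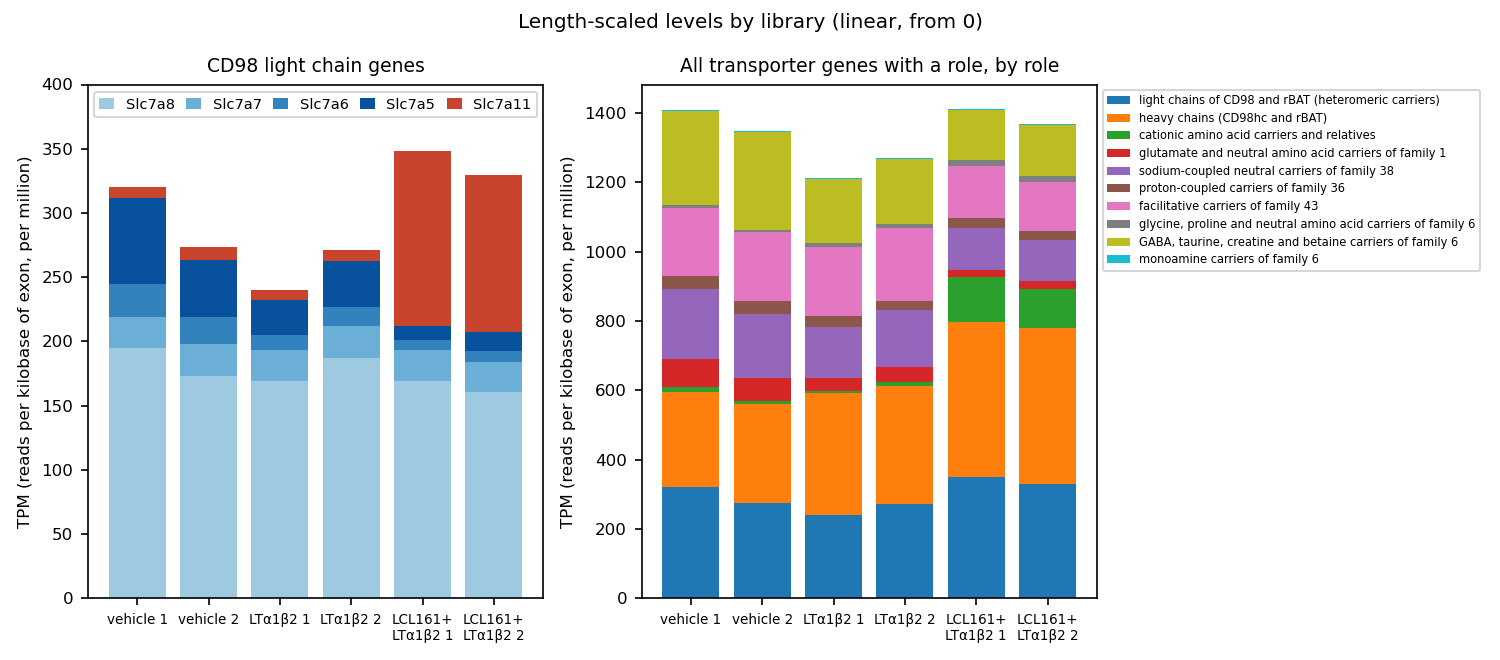
Stacked bars of levels per length (TPM, linear axes from 0) for the 6 libraries, for the CD98 light chains in one panel and for all members by role in the other (Slc6a21, untested, has no role and is not drawn). With the combination Slc7a11 takes 37.0% and 39.0% of the light chain TPM, and the cationic carriers take 8.18% and 9.05% of the TPM of all members. The totals of all members lie between 1212 and 1412 TPM and are lowest with LTα1β2.

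Among the cationic carriers, Slc7a2 (CAT-2; chr8:40862396-40922308, forward strand) had the largest increase of any member in both comparisons of the combination. It stood at 9.81 and 7.89 CPM with vehicle, 15.6 and 23.7 with LTα1β2, and 514 and 484 with the combination, with no overlap between groups. LTα1β2 raised it 2.22-fold (log2 1.15, SE 0.20, adjusted p = 0.00662 in edgeR). The combination raised it a further 25.3-fold over LTα1β2 (log2 4.66, SE 0.21, adjusted p = 1.89e-05), the 24th largest increase of the 18812 genes tested. Against vehicle it was 56.2-fold higher (log2 5.81, SE 0.23, adjusted p = 1.89e-06). An exon overlaps the predicted gene Gm26584 on the other strand, and whether strand was used in counting is not given in the sources used here. Slc7a2 held 22.6% and 25.6% of the TPM of the 5 cationic carriers and relatives with vehicle, 47.9% and 59.2% with LTα1β2, and 96.6% and 96.7% with the combination.

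Slc7a1 (CAT-1), the widely expressed cationic carrier, went the other way from Slc7a2 with LTα1β2. Its levels were 28.1 and 17.9 CPM with vehicle, 12.8 and 13.3 with LTα1β2, and 14.6 and 11.3 with the combination. It fell by 0.82 on the log2 scale (SE 0.22, adjusted p = 0.0354 in edgeR) with LTα1β2 and by 0.83 (SE 0.23, adjusted p = 0.0238) with the combination, both against vehicle, and differed by -0.01 (adjusted p = 0.984) between the treatments. The first call was lost without vehicle replicate 1 (adjusted p = 0.226) or either LTα1β2 library (0.181 and 0.13), and the other without vehicle replicate 1 (0.112) or combination replicate 2 (0.0694). Slc7a4, a relative with no settled substrate, was at 3.80 and 2.702 CPM with vehicle, 1.79 and 2.03 with LTα1β2, and 0.876 and 0.919 with the combination. It was called only in the combination against vehicle, at -1.85 (SE 0.32, adjusted p = 0.00301). The lysosomal relative Slc7a14 was called in the same comparison at 2.01 (SE 0.55, adjusted p = 0.0234) from 0.231 and 0.378 to 1.02 and 1.46 CPM, with 0.447 and 0.321 with LTα1β2. Its reads were 5.12 and 7.33 with vehicle, 7 and 6 with LTα1β2, and 14.12 and 19 with the combination. Slc7a14 was kept by the low-count filter only through the combination libraries, so its test is not independent of that selection. The call was lost with DESeq2 (adjusted p = 0.0563). That call was lost without any 1 of its 4 libraries (adjusted p 0.0641 to 0.18). Slc7a3 was not called, at 0.428 to 1.84 CPM.

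The main enzymes that use arginine were measured in the same libraries. Nos2, which makes nitric oxide from arginine, was at 0.556 and 0.324 CPM with vehicle, 5.74 and 8.77 with LTα1β2, and 456 and 518 with the combination. Its log2 increases were 4.01 (SE 0.32, adjusted p = 0.000142 in edgeR) with LTα1β2 and 6.06 (SE 0.22, adjusted p = 9.13e-06) from there to the combination. Ass1, which rebuilds arginine from citrulline, was at 6.30 and 12.4 CPM with vehicle, 43.8 and 44.8 with LTα1β2, and 105 and 105 with the combination. Arg1, which splits arginine to ornithine and urea, was highest with LTα1β2 alone, unlike Nos2 and Ass1. It was at 0.926 and 1.41 CPM with vehicle, 5.998 and 4.76 with LTα1β2, and 1.82 and 1.99 with the combination. It rose by 2.21 (SE 0.28, adjusted p = 0.00152) with LTα1β2 and fell by 1.49 (SE 0.28, adjusted p = 0.00744) from LTα1β2 to the combination. Of the 17 enzymes of arginine, ornithine and polyamines tested, 4 rose and 5 fell with LTα1β2, 3 rose and 6 fell from LTα1β2 to the combination, and 5 rose and 5 fell against vehicle, with medians of -0.10, -0.04 and -0.14. The shares called were 52.9%, 52.9% and 58.8%, beside 23.4%, 25.7% and 39.5% of all genes.

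Family 1 holds the carriers of glutamate (Slc1a1, Slc1a2, Slc1a3, Slc1a6, Slc1a7) and the exchangers of small neutral amino acids Slc1a4 and Slc1a5. Slc1a4 (chr11:20302180-20332713, reverse strand) had the steepest fall of any member in both comparisons of the combination. It was at 37.5 and 32.5 CPM with vehicle, 13.02 and 16.3 with LTα1β2, and 2.63 and 4.14 with the combination. The 3 groups did not overlap. The log2 changes were -1.26 (SE 0.19, adjusted p = 0.00349 in edgeR) with LTα1β2, -2.12 (SE 0.23, adjusted p = 0.000631) from LTα1β2 to the combination and -3.37 (SE 0.23, adjusted p = 2.01e-05) against vehicle, the last a 10.4-fold drop. The stromal marker sum was lower at both steps as well, and its part in the Slc1a4 result was not tested.

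Slc1a5, a glutamine carrier, was at 69.7 and 63.8 CPM with vehicle, 46.3 and 53.7 with LTα1β2, and 32.7 and 42.1 with the combination. Each step was -0.42 and not called (adjusted p = 0.0772 and 0.0734 in edgeR), whereas the combination was 0.84 lower than vehicle (log2 -0.84, SE 0.15, adjusted p = 0.00306). The glutamate carrier Slc1a6 was at 6.48 and 5.08 CPM with vehicle, 0.893 and 2.46 with LTα1β2, and 0.584 and 0.919 with the combination. It fell with LTα1β2 (log2 -1.75, SE 0.40, adjusted p = 0.0185) and against vehicle with the combination (log2 -2.94, SE 0.48, adjusted p = 0.00211). The LTα1β2 call was lost without vehicle replicate 1 (adjusted p = 0.119) or LTα1β2 replicate 1 (0.0612).

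Glutamate carriers at low levels gave weaker results. Slc1a1 was at 1.16 and 1.08 CPM with vehicle, 0.383 and 0.267 with LTα1β2, and 1.46 and 0.919 with the combination. It fell with LTα1β2 (log2 -1.78, SE 0.50, adjusted p = 0.0396 in edgeR) and rose from there to the combination (log2 1.86, SE 0.52, adjusted p = 0.0345), so that the combination and vehicle were not called apart (0.09, adjusted p = 0.888). Slc1a2 was at 1.02 and 0.973 CPM with vehicle, 0.702 and 0.749 with LTα1β2, and 1.75 and 2.37 with the combination, and was called in the combination against LTα1β2 alone of the 3 comparisons (log2 1.495, SE 0.38, adjusted p = 0.0255). The Slc1a1 call with LTα1β2 was lost without any 1 of its 4 libraries (adjusted p 0.104 to 0.195), its call between the treatments without either LTα1β2 library or combination replicate 1 (0.0695, 0.174 and 0.195), and that of Slc1a2 without either LTα1β2 library or combination replicate 2 (0.0803, 0.108 and 0.139). With DESeq2 the calls between the treatments were also lost, for Slc1a1 (adjusted p = 0.0722) and Slc1a2 (0.0597). That of Slc1a1 was lost as well with only the groups compared (adjusted p = 0.056 in edgeR). Slc1a3, at 1.76 to 4.23 CPM, was not called.

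In family 38, sodium-coupled carriers of glutamine and other neutral amino acids, 8 of 11 members were tested. Slc38a2, a carrier induced by amino acid starvation, was at 154 and 125 CPM with vehicle, 85.5 and 95.5 with LTα1β2, and 92.0 and 94.1 with the combination. It fell with LTα1β2 (log2 -0.63, SE 0.12, adjusted p = 0.0104 in edgeR) and stayed lower with the combination (-0.59, SE 0.12, adjusted p = 0.00781), with 0.04 between the treatments. The LTα1β2 call was lost without vehicle replicate 1 (adjusted p = 0.0799) or LTα1β2 replicate 1 (0.108). Slc38a10 was at 255 and 263 CPM with vehicle, 223 and 256 with LTα1β2, and 162 and 172 with the combination. It fell by 0.52 (SE 0.10, adjusted p = 0.00931) from LTα1β2 to the combination and by 0.63 (SE 0.10, adjusted p = 0.00203) against vehicle. The first of these calls was lost without LTα1β2 replicate 2 (adjusted p = 0.0643).

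Rises in family 38 were seen in 2 members. Slc38a6 was at 8.98 and 9.13 CPM with vehicle, 10.02 and 8.55 with LTα1β2, and 23.2 and 20.8 with the combination. It rose by 1.25 (SE 0.14, adjusted p = 0.00084 in edgeR) over LTα1β2 and by 1.28 (SE 0.14, adjusted p = 0.000293) over vehicle. Slc38a9, the lysosomal arginine sensor that signals to mTORC1, was at 20.2 and 18.6 CPM with vehicle, 30.4 and 31.9 with LTα1β2, and 27.6 and 25.9 with the combination. It rose with LTα1β2 (log2 0.68, SE 0.12, adjusted p = 0.00525) and the combination (0.46, SE 0.12, adjusted p = 0.0159), both against vehicle. The last call was lost without vehicle replicate 1 (adjusted p = 0.0837) or 2 (0.162) or combination replicate 1 (0.0603), and with total count scaling (0.368). Not called were Slc38a1 at 35.0 to 39.3 CPM, Slc38a7 at 41.5 to 54.6, Slc38a4 at 0.613 to 3.24 and Slc38a11 at 0.321 to 1.75.

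Family 36 holds proton-coupled carriers, among them the lysosomal Slc36a1. It was at 6.39 and 8.59 CPM with vehicle, 11.6 and 11.2 with LTα1β2, and 4.09 and 5.51 with the combination. The fall from LTα1β2 to the combination was 1.25 on the log2 scale (log2 -1.25, SE 0.22, adjusted p = 0.0053 in edgeR). The higher level with LTα1β2 than with vehicle (0.61, adjusted p = 0.0649) was not called. The combination was below vehicle without overlap, and this was not called either (log2 -0.64, SE 0.22, adjusted p = 0.0513). Slc36a2, a carrier of glycine and proline, was at 7.13 and 9.51 CPM with vehicle, 2.55 and 2.14 with LTα1β2, and 2.34 and 1.23 with the combination. It fell by 1.83 (SE 0.29, adjusted p = 0.00399) and 2.21 (SE 0.31, adjusted p = 0.000962) against vehicle. Slc36a4, at 54.0 to 76.8 CPM, was not called.

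Family 43 carries large neutral amino acids without ion coupling, apart from the purine carrier Slc43a3. Slc43a2 was among the 4 most abundant members per length in every group. It was at 623 and 729 CPM with vehicle, 791 and 837 with LTα1β2, and 617 and 636 with the combination, and fell by 0.38 (SE 0.11, adjusted p = 0.0378 in edgeR) from LTα1β2 to the combination. That call was lost without any 1 of its 4 libraries (adjusted p 0.0607 to 0.16). Slc43a1 was at 8.19 and 4.32 CPM with vehicle, 3.26 and 3.53 with LTα1β2, and 1.53 and 2.37 with the combination, and was called only against vehicle with the combination (log2 -1.69, SE 0.37, adjusted p = 0.00846). Slc43a3, at 24.3 to 33.3 CPM, was not called.

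Family 6 holds sodium- and chloride-coupled carriers, and 16 of its 19 members were tested. Slc6a19, the neutral amino acid carrier of gut and kidney epithelium, was the member that rose most with LTα1β2. It was at 1.30 and 1.30 CPM with vehicle, 14.9 and 12.2 with LTα1β2, and 21.4 and 25.4 with the combination. LTα1β2 raised it 10.4-fold (log2 3.38, SE 0.20, adjusted p = 2.96e-05 in edgeR) and the combination 17.9-fold over vehicle (log2 4.16, SE 0.20, adjusted p = 4.27e-06). The step from LTα1β2 to the combination was 0.79 (SE 0.16, adjusted p = 0.00967), and was lost without LTα1β2 replicate 2 (adjusted p = 0.104) or combination replicate 2 (0.051). Per length Slc6a19 stayed well under the leading members, at 6.40 TPM with LTα1β2 and 9.85 with the combination.

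Slc6a6, the taurine carrier, was the 2nd most abundant member per length with vehicle. It was at 769 and 890 CPM with vehicle, 612 and 636 with LTα1β2, and 495 and 536 with the combination. It fell by 0.41 (SE 0.11, adjusted p = 0.029 in edgeR) with LTα1β2 and by 0.69 (SE 0.11, adjusted p = 0.0017) with the combination, both against vehicle. The LTα1β2 call was lost without vehicle replicate 2 (adjusted p = 0.134) or either LTα1β2 library (0.252 and 0.109).

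At low levels, Slc6a13 and Slc6a4 rose with the combination. Slc6a13, a carrier of GABA, was at 0.278 and 0.486 CPM with vehicle, 0.766 and 0.374 with LTα1β2, and 3.36 and 1.84 with the combination. It rose by 2.20 (SE 0.54, adjusted p = 0.0219 in edgeR) over LTα1β2 and 2.76 (SE 0.55, adjusted p = 0.00585) over vehicle. Its reads were 6 and 9 with vehicle, 11.5 and 7 with LTα1β2, and 46 and 24 with the combination. Slc6a13 was kept by the low-count filter only through the combination libraries, so its test is not independent of that selection. Slc6a4, the serotonin carrier, was at 0.602 and 0.541 CPM with vehicle, 0.957 and 0.909 with LTα1β2, and 2.48 and 1.84 with the combination, and rose over vehicle (log2 1.90, SE 0.39, adjusted p = 0.00641). The Slc6a13 call between the treatments was lost without LTα1β2 replicate 2 (adjusted p = 0.127) or combination replicate 1 (0.159).

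Genes too low to be tested also had more reads with the combination. All genes below the filter summed to 2584 and 2442 CPM with vehicle, 2935 and 1940 with LTα1β2, and 5849 and 4261 with the combination. The part of this in the low-level rises of Slc1a1, Slc1a2, Slc7a14, Slc6a4 and Slc6a13 was not tested. The creatine carrier Slc6a8 at 25.3 to 38.8 CPM and the glycine carrier Slc6a9 at 4.72 to 10.2 CPM were not called. Nor were Slc6a2, Slc6a3, Slc6a7, Slc6a11, Slc6a12, Slc6a15, Slc6a16, Slc6a17 and Slc6a18, whose levels ran from 0 to 2.48 CPM. The 13 untested members were Slc1a7, Slc6a5, Slc6a14, Slc6a21, Slc7a9, Slc7a10, Slc7a12, Slc7a13, Slc7a15, Slc36a3, Slc38a3, Slc38a5 and Slc38a8, with 3 to 48.5 reads each over the 6 libraries.

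Counted over the 48 tested members, LTα1β2 against vehicle called 4 higher and 8 lower, or 25%, beside 23.4% of all genes tested. The combination against LTα1β2 called 9 higher and 6 lower, or 31.2%, beside 25.7% of all genes. Against vehicle it called 9 higher and 12 lower, or 43.8%, beside 39.5%. These shares were near those of all genes and are not a result about the members. The median log2 difference of the members was -0.21, 0.23 and 0.17 in that order, beside -0.04, 0.00 and 0.05 for all genes. The members tested include Slc6a13, Slc6a16 and Slc7a14, which passed the low-count filter only through the combination libraries. Counts and medians in both comparisons of the combination are therefore not independent of that selection, and no lean of the members is read from them. Scaling by total counts moved the median of all genes to -0.23, -0.12 and -0.26, and the members then divided into 4 higher and 14 lower, 8 and 9, and 8 and 16. In all, 26 members were called in at least 1 comparison, and Slc1a4, Slc3a2, Slc6a19, Slc7a2 and Slc7a6 were called in all 3. The comparisons share libraries and so are not independent of each other. Every called member had groups that did not overlap, which adds little to a call with 2 libraries a group. Members not called, such as Slc7a7 and Slc7a8 in LTα1β2 against vehicle, had separate groups as well. The share among all called genes was not counted. Leaving out 1 library lowered the number called with LTα1β2 to 6 (without vehicle replicate 1) or 5 (without LTα1β2 replicate 1), and that in the combination against LTα1β2 to 5 (without LTα1β2 replicate 2).

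**Figure D3:**
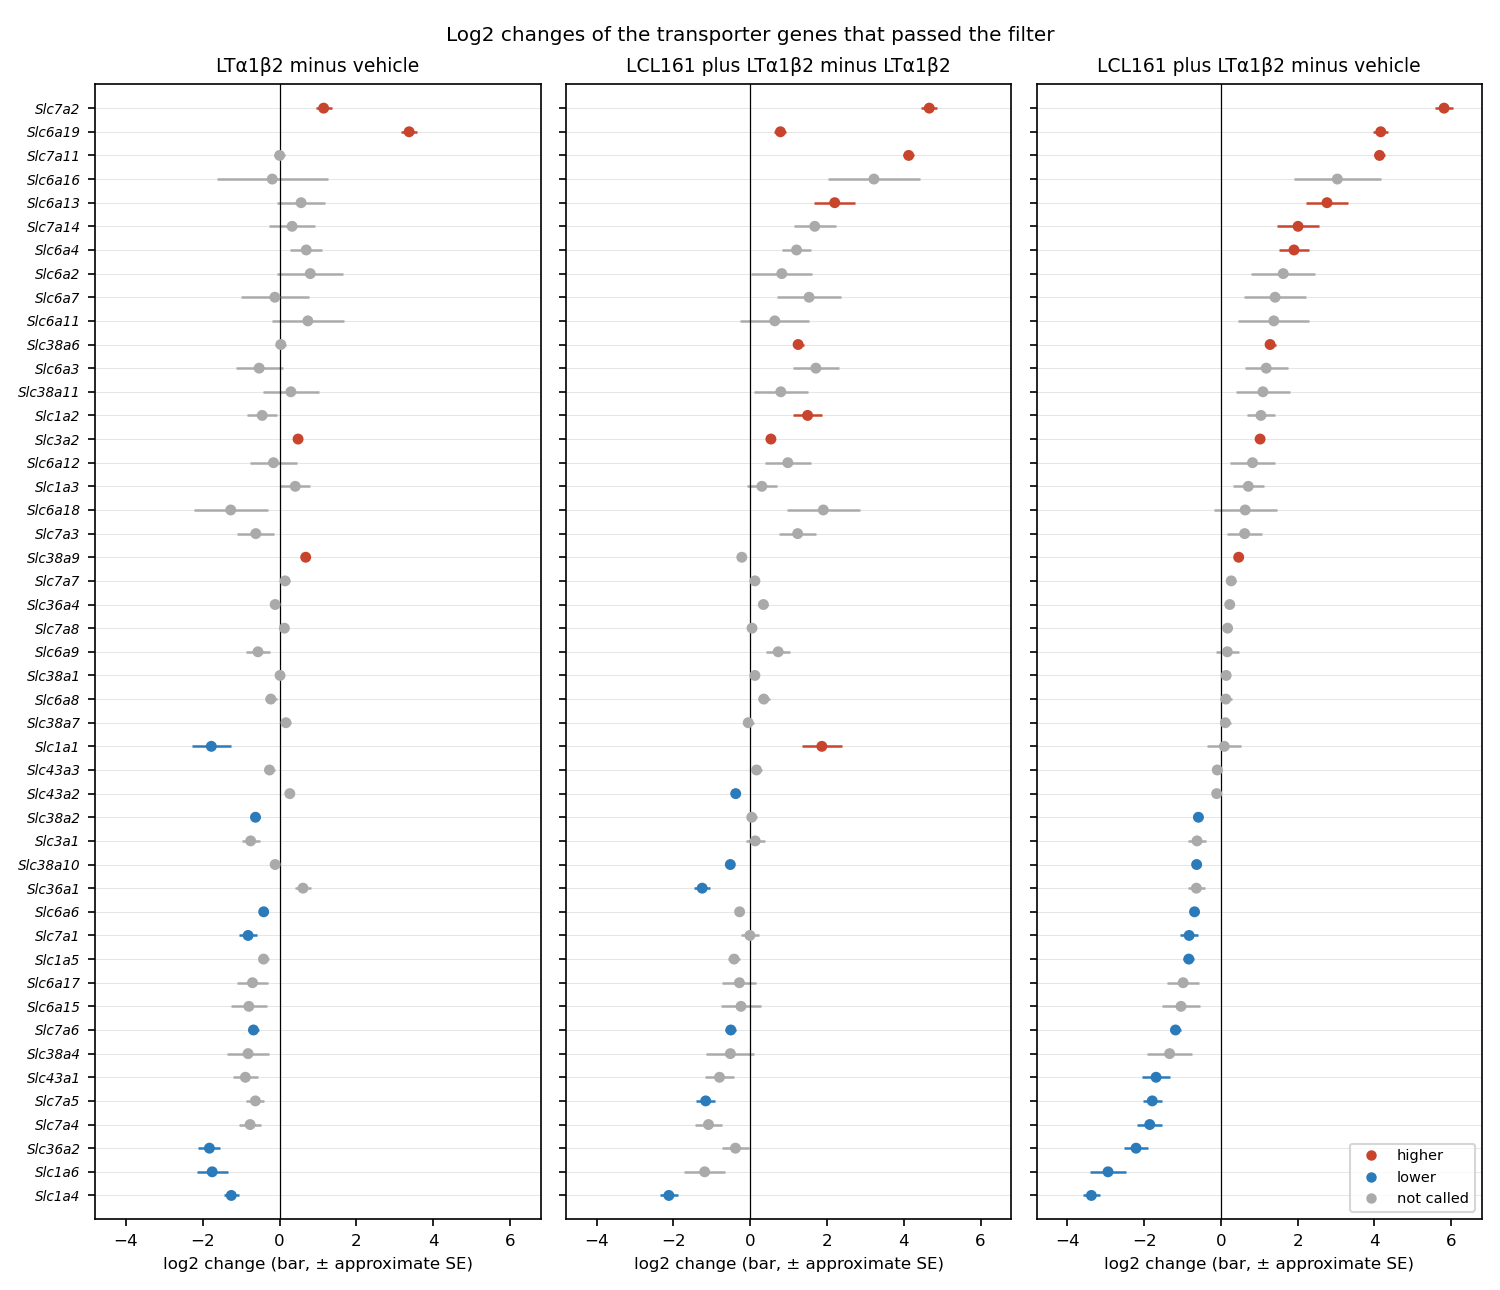
Log2 differences (horizontal axis) with approximate standard errors for 47 of the 48 tested members, 1 row each, in the 3 comparisons; red is called higher, blue called lower and grey not called. Slc7a2 and Slc7a11 stand to the right with the combination at 4.13 to 5.81, and Slc1a4 is lowest against vehicle at -3.37.

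Genes that make or use amino acids were counted from lists drawn up alongside the members. Of 18 cystine use and glutathione genes tested, 5 rose and 2 fell with LTα1β2, 6 rose and 0 fell from LTα1β2 to the combination, and 10 rose and 2 fell against vehicle. The list's medians were 0.17, 0.25 and 0.55, and 38.9%, 33.3% and 66.7% of it was called, beside the 23.4%, 25.7% and 39.5% of all genes. The list holds Slc3a2, a member, and Gclc and Gclm, whose 2 combination libraries differed widely (26.6 and 88.2 CPM, and 427 and 885 CPM). Txnrd1, the thioredoxin reductase, was at 745 and 837 CPM with vehicle, 602 and 659 with LTα1β2, and 1330 and 1383 with the combination, a rise of 1.11 over LTα1β2 (log2, SE 0.11, adjusted p = 0.000373 in edgeR). Hmox1, heme oxygenase, was at 747 and 1054 CPM with vehicle, 1079 and 1091 with LTα1β2, and 2771 and 2894 with the combination, a rise of 1.38 (SE 0.16, adjusted p = 0.000817). Srxn1, which repairs oxidised peroxiredoxins, rose by 1.30 (SE 0.11, adjusted p = 0.000269) in the same comparison.

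Amino acid synthesis genes and targets of the transcription factor ATF4 had more falls than rises among those called. Of 23 tested, 2 rose and 8 fell with LTα1β2, 2 rose and 7 fell from LTα1β2 to the combination, and 2 rose and 10 fell against vehicle, with medians of -0.54, -0.27 and -0.80, and the rest were not called. The shares called were 43.5%, 39.1% and 52.2%, beside 23.4%, 25.7% and 39.5% of all genes, and no test of the list was run. Phgdh, the first enzyme of serine synthesis, was at 102 and 83.4 CPM with vehicle, 37.6 and 52.3 with LTα1β2, and 15.1 and 17.4 with the combination, 2.51 lower on the log2 scale than vehicle (log2 -2.51, SE 0.19, adjusted p = 3.79e-05 in edgeR). Asns, asparagine synthetase, was at 101 and 73.2 CPM with vehicle, 41.9 and 49.8 with LTα1β2, and 27.8 and 27.3 with the combination. Atf4 itself was at 70.7 to 79.2 CPM in the 6 libraries and was not called. Phgdh and Asns, like Slc1a4 and Slc7a5, descended with the stromal marker sum, whose part was not tested.

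Of 27 genes of amino acid sensing at the lysosome and mTORC1, 1 rose and 4 fell with LTα1β2, 3 rose and 4 fell from there to the combination, and 5 rose and 7 fell against vehicle. The shares called, 18.5%, 25.9% and 44.4%, were near those of all genes (23.4%, 25.7% and 39.5%) and are not a result about the list. Sesn1, a sestrin that restrains mTORC1, was at 92.4 and 98.6 CPM with vehicle, 54.4 and 49.0 with LTα1β2, and 23.2 and 19.6 with the combination, and fell in each comparison (log2 -0.89, -1.27 and -2.16, adjusted p = 0.00177, 0.000399 and 1.02e-05 in edgeR). Of 16 genes of tryptophan and branched-chain amino acid breakdown, 3 rose and 1 fell, 3 rose and 2 fell, and 7 rose and 1 fell in the same order, or 25%, 31.2% and 50% called. Kynu, kynureninase of tryptophan breakdown, was at 0.324 and 0.541 CPM with vehicle, 4.66 and 6.20 with LTα1β2, and 26.3 and 23.0 with the combination. Of 11 glutamine and glutamate enzymes, 3 rose and 2 fell, 1 rose and 3 fell, and 1 rose and 4 fell, or 45.5%, 36.4% and 45.5% called. Among 21 other amino acid and peptide carriers outside the named families, 6 rose and 2 fell, 4 rose and 0 fell, and 8 rose and 2 fell, or 38.1%, 19% and 47.6% called. Slc16a10, a carrier of aromatic amino acids, was at 22.6 and 22.9 CPM with vehicle, 30.2 and 28.3 with LTα1β2, and 60.4 and 68.9 with the combination.

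**Figure D4:**
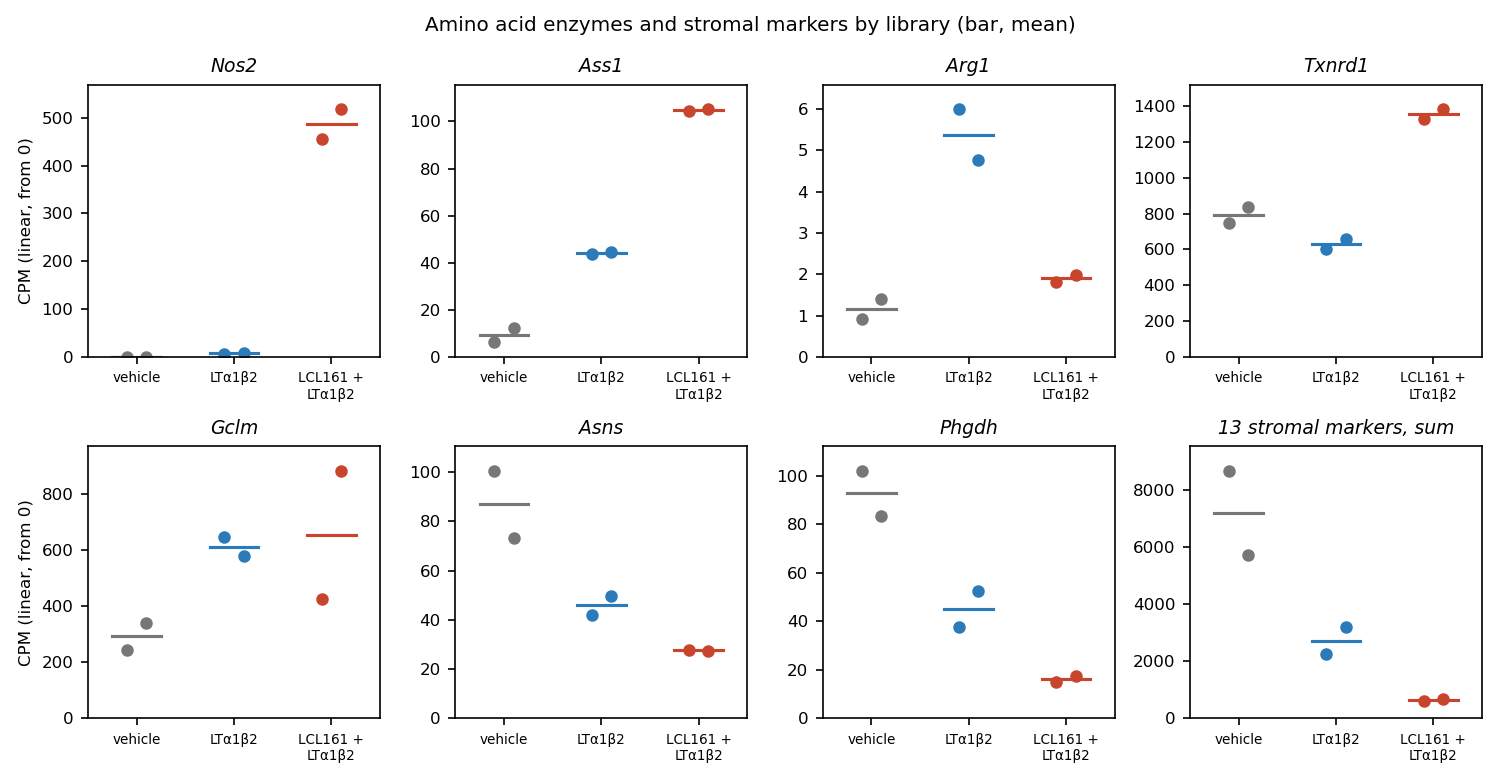
Levels in CPM (linear vertical axes) of 7 enzymes and of the sum of 13 stromal markers, by treatment for the 6 libraries; points are libraries and bars are means of 2. Nos2 is at 456 and 518 CPM with the combination and under 9 elsewhere, Arg1 is highest with LTα1β2 alone, and Asns, Phgdh and the stromal sum descend from vehicle to the combination.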

How the data were processed

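Expected counts per gene, deposited by the authors in 1 table of 6 libraries and keyed by gene symbol, were the only values used. STAR 2.7.3a, DESeq2 1.26.0 and the build GRCm38 are named per the submitters' processing notes, with no role given. The counting program, annotation and use of strand were not given in the sources used here. Of the non-zero values, 66.6% were whole, and 25 members had counts that were not whole. Exons of 12 members overlap a gene on the other strand and of 0 a gene on the same strand, by GENCODE M21.

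Groups were taken from the sample titles. Counts were rounded for the tests. Genes with low counts were removed by filterByExpr at 10 reads, which kept 18812 and dropped 36211. A single group-means model of all 6 libraries was run with edgeR 4.0.16 in R 4.3.3, with trimmed mean of M values factors and the quasi-likelihood test, two-sided, adjusted by Benjamini-Hochberg over the 18812 genes, with calls under 0.05. The model had 3 residual and 4.59 prior degrees of freedom and a biological coefficient of variation of 13.6%. The standard error is the log2 difference divided by the square root of the F statistic. In CPM, 3 reads equal 0.139 to 0.23 across libraries. TPM were computed from exon lengths of GENCODE M21, which gave a length to 53390 genes holding at least 99.2% of the counts. The length was the union of all annotated exons of a gene, such as 13922 bases for Slc7a11 and 5005 for Slc7a8. It is not the length of the transcript expressed, so ranks and shares between genes depend on this choice. The 26 entries with date-like names (at most 0.178% of counts) were kept. Promoter windows were matched by symbol to RefSeq on GRCm38.p6, for 43 of 61 members. The fit was checked on simulated data with fewer changed genes than were called here, balanced up and down, and the same spread for all genes. That check does not bear on the scaling between libraries.

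The members and lists were chosen with earlier results of these data known. Called members with a mean of 1 CPM or more in some group were named with all 6 values, the others by range or reads; from each pathway list up to 4 called genes with the smallest p per comparison could be named, and Atf4 was added for its role. Values of 1 called member are not reported here, though it is in the counts. Alternatives were relative log expression factors, total count scaling, DESeq2 1.42.0, edgeR's newer quasi-likelihood method, a filter of 1 read in all, a filter of 1 CPM in 2 libraries, fits of the compared groups alone, a replicate block and leaving out each library in turn.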

Additional observations from a re-analysis of the deposited data

How the results depend on the processing

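With 2 libraries a group, counts of called members with 1 library left out were 5 to 12 in LTα1β2 against vehicle (12 with all libraries), 5 to 12 in the combination against LTα1β2 (15) and 19 to 22 against vehicle (21). They were fewest without LTα1β2 replicate 1 (5) or vehicle replicate 1 (6) in the first, and without LTα1β2 replicate 2 (5) in the next. Members called lower ranged from 2 to 8 in the first, and higher from 3 to 7 and lower from 2 to 6 in the next, over the same left-out libraries. Other settings gave 12 to 18, 13 to 22 and 20 to 25. Total count scaling raised the members lower with LTα1β2 from 8 to 14, and no filter beyond 1 read raised those lower in the combination against LTα1β2 from 6 to 11. Of 893 values of named members under alternatives, 779 kept direction and side of the threshold, 59 lost the call, 37 gained it and 18 changed sign. Of 47 calls, 28 held in every alternative that gave a value. These 28 include Slc7a11 and Slc7a2 with the combination, Slc1a4 in all 3 comparisons and Slc6a19 against vehicle.

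The 18 sign changes were all of values not called before or after. For LTα1β2 against vehicle, Slc7a11 gave -0.004 with relative log expression factors, -0.182 with total count scaling and -0.003 with DESeq2, and Slc38a6 gave -0.157 with total count scaling. With 1 library left out in turn, Slc7a11 ranged from -0.183 to 0.204, Slc38a6 from -0.005 to 0.136 and Slc38a10 from -0.225 to 0.058. For the combination against LTα1β2, Slc38a2 gave -0.081 with total count scaling, -0.098 without the filter and -0.103 to 0.086 with 1 library left out, and Slc7a1 gave 0.040 at 1 CPM, 0.002 with only the groups compared and -0.222 to 0.096 with 1 library left out. Against vehicle, Slc1a1 gave -0.215 with total count scaling and -0.299 to 0.313 with 1 library left out. The cause was not tested.

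With the replicate number as a block, 12, 15 and 23 members were called. The labels state no pairing, and same-numbered libraries deviated together with correlations of 0.138, 0.094 and 0.157. Under the block, Slc7a6 was not called in the combination against LTα1β2 (adjusted p = 0.0568 in edgeR). With only the groups compared, that Slc7a6 call was also lost (0.0633), as was that of Slc6a6 with LTα1β2 (0.0591). The filter of 1 CPM in 2 libraries removed the call of Slc43a2 in the combination against LTα1β2 (0.0509). No filter beyond 1 read removed that of Slc38a9 in the combination against vehicle (0.0713).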

Other observations

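In the combination group, the 2 libraries stood apart for 4 genes of the related pathway lists, which were chosen after their values were seen. Cebpb, a transcription factor of macrophage activation, was at 7.88 CPM in replicate 1 and 92.4 in replicate 2, beside 132 and 129 with LTα1β2 and 2.45 and 3.03 with vehicle. Gclc and Gclm, the subunits of the rate-limiting enzyme of glutathione synthesis, were at 26.6 and 88.2 CPM and at 427 and 885 CPM. Glud1, glutamate dehydrogenase, was at 106 and 219 CPM. In each of the 4, replicate 1 was the lower library. The same 2 libraries were close for the cystine carrier gene Slc7a11, at 865 and 834 CPM.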
